A study of Sus scrofa with 12 samples.

Results

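The genes that make, modify and restrain polyamines were compared between testis and epididymis of adult BMI boars (Banna mini-pig inbred line). The set comprised the antizymes OAZ1, OAZ2 and OAZ3, the antizyme inhibitors AZIN1 and AZIN2, the synthesis enzymes ODC1, AMD1 and SRM, and the breakdown enzymes SAT1 and PAOX. Of these 10 genes, chosen by exact row name, 9 had a row among the 30640 gene rows of the count files. PAOX had none, but a row named by the Ensembl identifier that a gene table pairs with PAOX was present and is described apart from the 9. Both groups were untreated animals of that line, with 5 short-read RNA libraries from testis and 5 from epididymis. Animal numbers in the file headers give 1 boar per library and the same 5 boars for both tissues, whereas the extraction protocol in the labels speaks of mixed samples. The labels give an age of 12 months for all, but the headers of the files state 12, 12, 11, 17 and 11 months for boars 1 to 5. Another 2 samples, long-read libraries from pooled boars, were not analysed here.

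Polyamines are small positively charged molecules that bind nucleic acids and are needed for growth and for sperm formation. Ornithine decarboxylase, ODC1, makes putrescine from ornithine, AMD1 makes the aminopropyl donor, and the spermidine and spermine synthases SRM and SMS build the longer polyamines. Antizymes bind ODC1 and separate its subunits, and at least OAZ1 brings it to the proteasome. Antizyme mRNAs are decoded through a ribosomal frameshift that polyamines stimulate. Antizyme inhibitors resemble ODC1 without its activity and draw antizyme away from it. SAT1 acetylates spermidine and spermine, and PAOX and SMOX oxidise polyamines. In mouse and human, OAZ3 is known as the antizyme of spermatids, and AZIN2 as an inhibitor abundant in testis.

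The libraries held 18715154 to 30211957 reads in testis and 17980578 to 21937263 in epididymis. Levels are counts per 1000000 reads of the library (CPM), where a count of 0 allows up to 0.0993 to 0.167 CPM, a limit that covers counting error only. Marker lists of Leydig cells, epididymal epithelium and spermatids separated the tissues as labelled, but not all lists did. Endothelial genes summed to 207 to 435 CPM in testis and 204 to 522 in epididymis. Of 7 spermatogonia genes, 4 were called higher in testis and 2 in epididymis. Leydig cell genes summed to 12266 to 19536 CPM in testis against 26.8 to 33.8 in epididymis, and genes of the epididymal epithelium to 25 to 37.7 CPM in testis against 9190.0 to 16266 in epididymis, with CRISP1 at 0 reads in testis. Of 14 spermatid and sperm genes, all 14 were called higher in testis, against 36.6% of all genes tested. The libraries fell into different RNA types. Testis replicates 1, 2, 3 and 5 held 15042.5 to 16184.7 CPM of small structural RNAs, which lack a poly(A) tail, against 71.7 to 132 CPM in epididymis. Replication histone RNAs, which also lack one, took 2047.5 to 2927.2 CPM of the same 4 libraries against 61.3 to 295.4 CPM in epididymis. Testis replicate 4, whose header gives the age of 17 months, was like epididymis in both, with 70.8 and 91.7 CPM. For the other 4 boars tissue and library RNA type therefore cannot be told apart, and replicate 4 is the sole testis library of the epididymis type. Epididymis replicate 3 held 659 CPM of the spermatid and sperm list against 124 to 243 in the other epididymis libraries. Library type, age and RNA content of testis replicate 4 cannot be told apart either. In bulk tissue, fewer cells of a type and less RNA per cell cannot be told apart.

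Over the 9 genes found by name, all of which passed the filter on low counts, edgeR called 5 as higher in testis (OAZ2, OAZ3, ODC1, AZIN2 and SRM) and 2 higher in epididymis (OAZ1 and SAT1), and 2 were not called (AZIN1 and AMD1). Of all 17225 genes tested, 74.4% were called, testis being higher for 36.6% and epididymis for 37.8%, so calls as such are common between these tissues. With the boar as a block 6 members were higher in testis and 1 in epididymis, as AMD1 was gained and OAZ1 lost. The median log2 fold change was 0.80 over the 9 genes and -0.07 over all genes tested, and the median of its size without sign was 0.98 and 1.51. For OAZ2, OAZ3, ODC1, AZIN2 and SRM the lowest testis library exceeded the highest epididymis library, as in 32.1% of the genes tested, and for SAT1 the reverse held, as in 29.3%. Beyond a 2-fold change, glmTreat called OAZ3, AZIN2 and SRM higher in testis, as 27.3% of the genes tested, and SAT1 higher in epididymis, as 23.4%. With replicate 4 as the sole testis library, log2 fold changes were 6.88 for OAZ3, 3.86 for AZIN2, 2.55 for SRM, 1.28 for ODC1 and 1.04 for OAZ2. They were -1.16 for SAT1 and -0.10 for OAZ1, and the median over all genes tested there was -0.19. The spread in that fit is taken from epididymis alone and fewer genes are called in general, so calls kept or lost there do not single out a member. DESeq2 size factors moved the median of all genes to 0.05, and no member changed direction under any scaling.

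**Figure D1:**
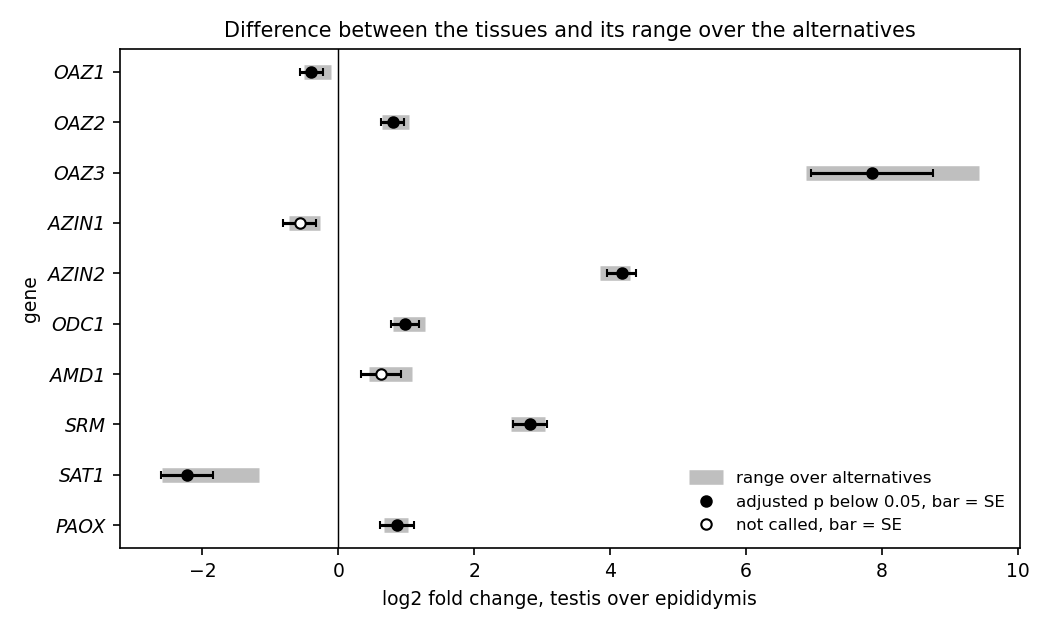
Log2 fold change, testis over epididymis, of the 9 genes and of the row paired with PAOX, with approximate SE bars. Filled points passed an edgeR adjusted p of 0.05, open points did not, and grey bands span the values under 20 alternatives, from 6.88 to 9.43 for OAZ3 and from -2.60 to -1.16 for SAT1.

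Among the antizymes the tissues differed most in OAZ3, which ranked 17th to 89th of all genes in the testis libraries and 5991st to 12568th in the epididymis. OAZ3 stood at 2365, 2080.3, 2012, 923 and 2295 CPM in testis replicates 1 to 5, against 2.39, 4, 30.5, 4.34 and 2.06 CPM in epididymis replicates 1 to 5. No epididymis library came near the lowest testis library, replicate 4, and epididymis replicate 3 was well above the rest of its tissue. The means were 1935 ± 584 CPM in testis and 8.67 ± 12.3 in epididymis (SD over 5 libraries each), with a log2 fold change of 7.86 ± 0.90 (approximate SE; edgeR adjusted p = 9.40e-06), or 232-fold. With the boar as a block it was 8.63 (edgeR adjusted p = 2.06e-05). Without epididymis replicate 3 the log2 fold change was 9.25 (edgeR adjusted p = 6.38e-09), and without that library and testis replicate 4 it was 9.43. The gene lies on chromosome 4 (97439993 to 97448493, Sscrofa11.1) and overlaps MRPL9, a mitochondrial ribosomal protein gene, so reads may be shared where counting ignored strand. MRPL9 itself had 36.1 to 97.4 CPM in testis, highest in replicate 4, against 42.6 to 55.1 CPM in epididymis (edgeR adjusted p = 0.721).

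The other antizymes, which act in most tissues, differed far less. OAZ2, on chromosome 1 (107325225 to 107338475), had 90.5, 97.2, 103, 110.4 and 95.4 CPM in testis replicates 1 to 5, against 60.7, 72.7, 54.4, 50.1 and 50.1 CPM in epididymis replicates 1 to 5. The tissues did not overlap. Testis was higher by a log2 fold change of 0.80 ± 0.17 (approximate SE; edgeR adjusted p = 0.000883). OAZ1, the most widely expressed antizyme, on chromosome 2 (76293142 to 76296626), had 257, 326, 286, 353 and 289 CPM in testis against 429.9, 331, 367, 415 and 480.2 CPM in epididymis. It was lower in testis in each of the 5 boars, but testis replicate 4 lay above epididymis replicate 2, so the tissues overlapped. The log2 fold change of -0.40 ± 0.17 just passed the threshold (edgeR adjusted p = 0.0475) and did not in 14 of 20 alternatives. With the boar as a block the edgeR adjusted p of OAZ1 was 0.117, with DESeq2 size factors 0.157 (log2 -0.28), and without testis replicate 1, 2, 3 or 5 or epididymis replicate 1, 4 or 5 it was 0.0509 to 0.201. The direction held in all 20.

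**Figure D2:**
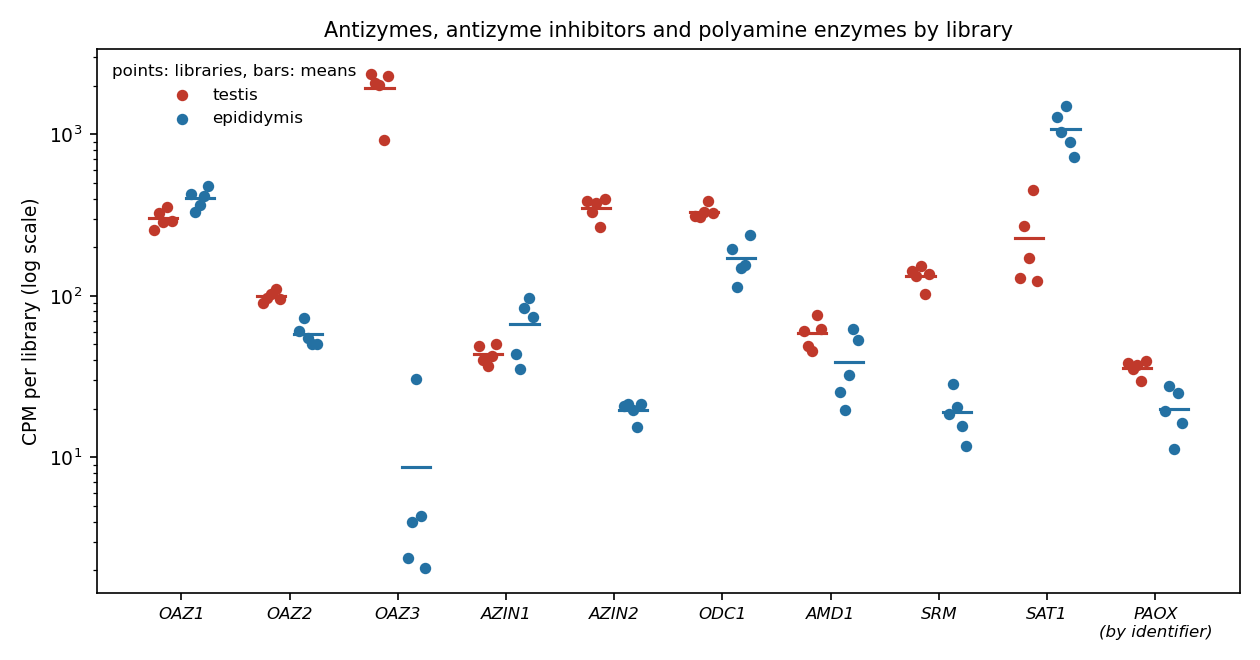
Levels in CPM (log axis) of the 9 genes found by name and of the row paired with PAOX by identifier, with 1 point per library, testis in red left of epididymis in blue, and a bar for the mean of 5 libraries. OAZ3 separates the tissues most, with 923 CPM in its lowest testis library against 30.5 CPM in its highest epididymis library, and SAT1 lies the other way round.

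OAZ3 made up most antizyme mRNA in testis, and OAZ1 in epididymis. Dividing reads by the counted length of each gene, OAZ3 took 90.6, 87.3, 88.1, 73.7 and 89.4% of the sum of the 3 antizymes in testis replicates 1 to 5, against 0.647, 1.34, 8.85, 1.22 and 0.509% in epididymis replicates 1 to 5. OAZ1 took 7.80 to 22.3% in testis and 84.0 to 93.9% in epididymis. The lowest OAZ3 share of testis belonged to replicate 4 and the highest of epididymis to replicate 3. Summed over the 3 genes, length-scaled antizyme reads (per kilobase and 1000000 library reads) came to 2321 ± 582 in testis and 371 ± 40.4 in epididymis (SD over 5 libraries each), whereas OAZ1 and OAZ2 together came to 297 ± 33.8 and 362 ± 44.7. Without OAZ3 the ranges overlapped, with 256 to 344 in testis and 308 to 421 in epididymis. OAZ2 stood at 0.171 to 0.207 of OAZ1 in testis and at 0.0597 to 0.126 of it in epididymis, without overlap. These shares are descriptions of the libraries, with no test.

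OAZ3 was lowest in the testis library with the highest summed spermatid markers, replicate 4, which also differs in RNA type and header age. In testis replicate 4 the spermatid and sperm list stood at 21714 CPM, above the 15415 to 17177 of the other testis libraries, while OAZ3 was lowest there. OAZ3 came to 4.25% of that list in replicate 4 and to 12.5 to 14.7% in the other testis libraries. Among those others, the list and OAZ3 were both highest in replicate 1 (17177 and 2365 CPM). Replicate 3 came next on the list (16157 CPM) but had the lowest OAZ3 of them (2012 CPM). Of the 14 listed genes with a row, 11 were above the other testis libraries in replicate 4, such as PRM2, a protamine, with 1464 CPM against 229 to 296, and TNP1, a transition protein, with 2396 against 629 to 766. Below the others were PRM1 (7532 against 7614 to 8202 CPM), TSSK1B and GAPDHS. Among the 9 members, replicate 4 was above the other testis libraries for OAZ1, OAZ2, ODC1, AMD1 and SAT1 and below them for OAZ3, AZIN2 and SRM. Such shifts were common, since 40.6% of all tested genes were above and 35.4% below the other 4 testis libraries in replicate 4. In epididymis replicate 3, 12 of the 14 genes were above the other libraries of that tissue, where 31.9% of all tested genes were, and OAZ3 came to 4.64% of the list there against 1.47 to 3.23% in the others. PRM1 stood at 290.1 CPM in that library against 10.5 to 37.0 in the others. The part of sperm or other germ cell RNA in the epididymal OAZ3 reads was not tested.

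**Figure D3:**
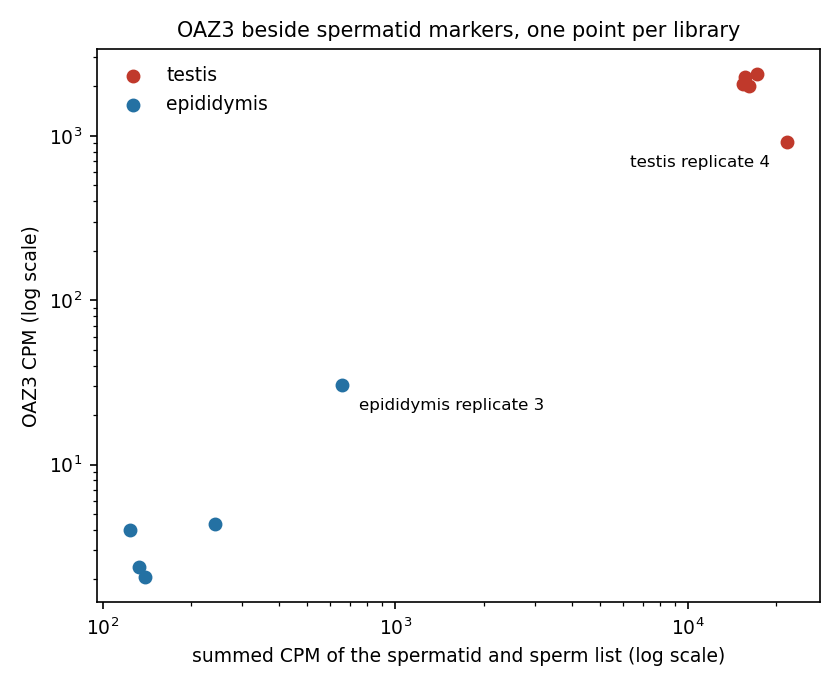
OAZ3 level against the summed level of 14 spermatid and sperm genes, both in CPM on log axes, with 1 point per library. Testis replicate 4 has the highest marker sum (21714 CPM) and the lowest testis OAZ3 (923 CPM), and epididymis replicate 3 lies above the other epididymis libraries on both axes.

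Of the antizyme inhibitors, AZIN2 was higher in testis and AZIN1 was not called. AZIN2, on chromosome 6 (89346860 to 89385323), had 389, 328, 375, 268 and 398 CPM in testis replicates 1 to 5, against 20.7, 21.4, 19.6, 15.4 and 21.5 CPM in epididymis replicates 1 to 5. The levels were even within each tissue and far apart between them, and the boar with the lowest testis value, number 4, also had the lowest epididymis value. Testis replicate 4 was the lowest testis library for 35.4% of all tested genes. AZIN2 had a log2 fold change of 4.17 ± 0.21 (approximate SE; edgeR adjusted p = 2.29e-08), an 18.0-fold difference. Unlike OAZ3, AZIN2 did not stand out in epididymis replicate 3. AZIN1, on chromosome 4 (34221368 to 34257261), had 49.1, 40.1, 36.5, 42.6 and 50.1 CPM in testis against 43.3, 35.4, 83.7, 96.7 and 73.4 CPM in epididymis. Epididymis replicates 1 and 2 lay within or below the testis range and the other 3 above it. AZIN1 had a log2 fold change of -0.57 ± 0.25 (edgeR adjusted p = 0.0572), and it passed the threshold without epididymis replicate 1 (log2 -0.68, edgeR adjusted p = 0.0344) or 2 (log2 -0.72, edgeR adjusted p = 0.0108).

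AZIN2 supplied 93.7 to 96.1% of the length-scaled antizyme inhibitor reads in testis and 27.4 to 58.9% in epididymis. Summed, the inhibitors came to 180.2 ± 26.7 length-scaled reads in testis and 23.2 ± 4.58 in epididymis (SD over 5 libraries each). All antizymes together stood at 12.7 ± 2.04 times the inhibitors in testis and 16.4 ± 2.91 times in epididymis, with overlapping ranges of 9.39 to 14.8 and 13.5 to 20.4. By raw reads these ratios were 5.85 ± 0.862 in testis and 5.81 ± 1.60 in epididymis. OAZ1 and OAZ2 without OAZ3 stood at 1.28 to 2.47 times the inhibitors in testis and at 12.3 to 20.3 times in epididymis, without overlap. By raw reads they stood at 1.05 ± 0.281 times in testis and 5.72 ± 1.65 times in epididymis. This ratio leaves out OAZ3 but keeps AZIN2, and both were higher in testis, so it mostly restates the AZIN2 difference. The inhibitor sums by raw reads were 395 ± 56.4 CPM in testis and 86.2 ± 24.5 CPM in epididymis, so the size of these contrasts depends on the length scaling. These ratios compare mRNA and say nothing of protein, since antizyme output also depends on frameshifting.

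**Figure D4:**
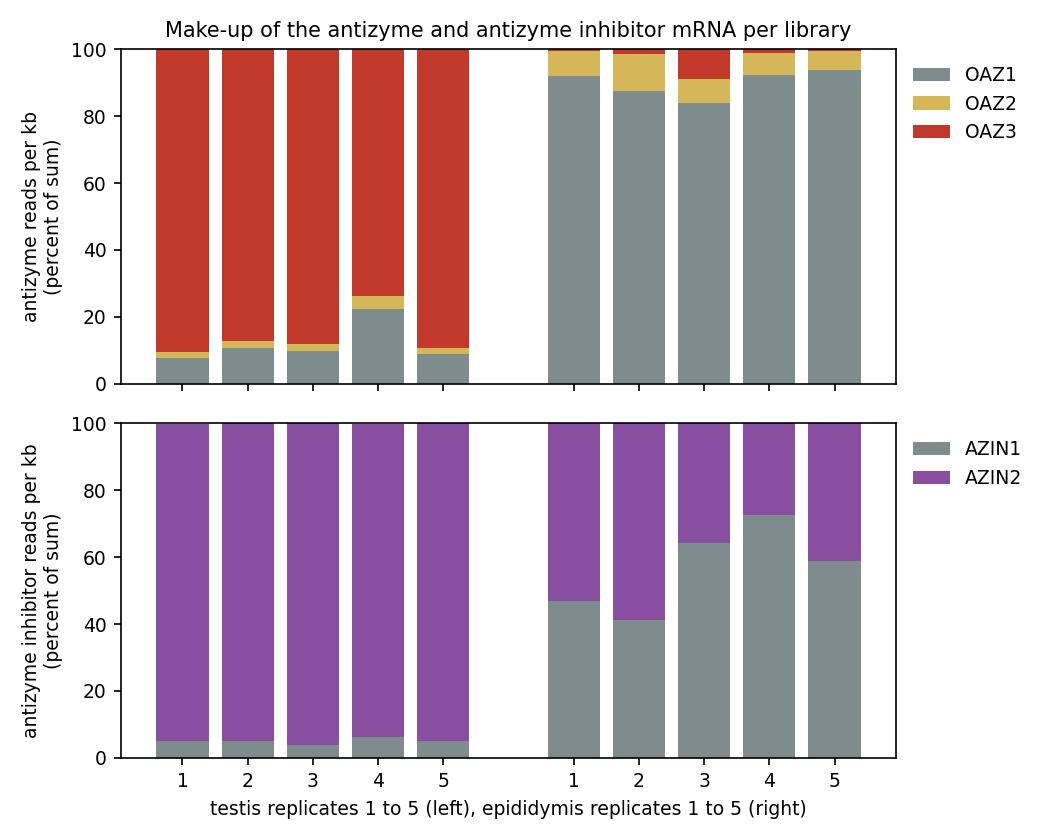
Share of each gene in the length-scaled reads of the antizymes (upper panel) and of the antizyme inhibitors (lower panel), in percent, for testis replicates 1 to 5 on the left and epididymis replicates 1 to 5 on the right. OAZ3 fills 73.7 to 90.6% of the antizyme bars in testis and at most 8.85% in epididymis, and AZIN2 fills 93.7 to 96.1% of the inhibitor bars in testis and 27.4 to 58.9% in epididymis.

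Of the synthesis enzymes, ODC1 and SRM were higher in testis and AMD1 was not called. ODC1, the regulated first enzyme of the pathway and the target of antizyme, on chromosome 3 (126087013 to 126095644), had 313, 309.6, 328, 388 and 324 CPM in testis replicates 1 to 5, against 196, 114, 149.7, 155 and 239 CPM in epididymis replicates 1 to 5. The tissues did not overlap, and testis replicate 4 was the highest library. ODC1 had a log2 fold change of 0.98 ± 0.21 (approximate SE; edgeR adjusted p = 0.00116). SRM, the spermidine synthase, on chromosome 6 (71246895 to 71253534), had 142, 132, 152, 103 and 137 CPM in testis against 18.6, 28.5, 20.6, 15.6 and 11.8 CPM in epididymis. Its lowest testis library, replicate 4, was still far above the highest epididymis library. SRM had a log2 fold change of 2.83 ± 0.25 (edgeR adjusted p = 1.32e-06), or 7.09-fold. SRM overlaps a predicted locus in the RefSeq table, LOC110261096, with which it may share reads.

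AMD1, which decarboxylates S-adenosylmethionine for both synthases, on chromosome 1 (76839448 to 76863745), was not called. It had 60.9, 48.6, 45.4, 76.4 and 62.6 CPM in testis replicates 1 to 5, against 25.3, 19.5, 32.5, 62.3 and 53.6 CPM in epididymis replicates 1 to 5. The tissues overlapped through epididymis replicates 4 and 5, but testis was higher than epididymis in all 5 boars. The log2 fold change was 0.63 ± 0.30 (edgeR adjusted p = 0.0722). With the boar as a block it was 0.74 and passed the threshold (edgeR adjusted p = 0.0230), as it did with DESeq2 size factors (log2 0.76, edgeR adjusted p = 0.0347) and without epididymis replicate 4 (0.0276) or 5 (0.0356).

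SAT1, the acetylating enzyme of polyamine breakdown and export, was the member most clearly higher in epididymis. The gene lies on chromosome X (19908037 to 19910553). It had 129.5, 272, 171, 449.7 and 124 CPM in testis replicates 1 to 5, against 1287, 1032, 1492, 891 and 726 CPM in epididymis replicates 1 to 5, where it ranked 51st to 170th of all genes. The highest testis library, replicate 4, remained below the lowest epididymis library, and the testis values spread more than those of any other member in that tissue (coefficient of variation 59.7%). The log2 fold change was -2.23 ± 0.38 (approximate SE; edgeR adjusted p = 0.000199), 4.68-fold higher in epididymis. When replicate 4 was the sole testis library it was smaller, at -1.16, with the spread then taken from epididymis alone. The 7 macrophage markers summed to 69.6 to 122 CPM in testis, highest in replicate 4, and to 129 to 444 in epididymis. In epididymis the sum was highest in replicate 4 (444 CPM), where SAT1 had 891 CPM. It was 296 CPM in replicate 3, where SAT1 was highest. Of the 7 markers, 6 were called higher in epididymis, as were 37.8% of all genes tested. Smooth muscle markers summed to 335 to 492 CPM in testis against 5829 to 16180.1 in epididymis. The basal cell and epididymal epithelium lists were also higher in epididymis. The part of these cells in SAT1 was not tested.

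The row paired with PAOX by identifier, ENSSSCG00000040586, went the other way from SAT1, although both act in polyamine breakdown. It had 38.2, 35.4, 37.3, 29.5 and 39.4 CPM in testis replicates 1 to 5, against 19.3, 27.8, 11.2, 25.1 and 16.2 CPM in epididymis replicates 1 to 5. The tissues did not overlap. Its log2 fold change was 0.87 ± 0.25 (edgeR adjusted p = 0.00705). In the RefSeq table PAOX lies on chromosome 14 (141360509 to 141369642).

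Ordered by length-scaled reads, the members formed different sequences in the tissues. In testis OAZ3 (2024 ± 611, SD, n = 5) stood apart from OAZ1 (249.9 ± 30.9), which overlapped SAT1 (198 ± 118), which overlapped AZIN2 (171 ± 26.2). ODC1 (52.1 ± 5.01) and OAZ2 (47.0 ± 3.64) overlapped, as did SRM (20.1 ± 2.76) and AMD1 (17.7 ± 3.72), with AZIN1 lowest (8.96 ± 1.20). In epididymis SAT1 led (938 ± 265), apart from OAZ1 (335 ± 47.8), which was apart from the rest. OAZ2 (27.3 ± 4.49), ODC1 (26.7 ± 7.50), AZIN1 (13.6 ± 5.39), AMD1 (11.6 ± 5.56), AZIN2 (9.59 ± 1.23), OAZ3 (9.06 ± 12.8) and SRM (2.87 ± 0.947) followed, each overlapping its neighbour. The counted lengths of ODC1 and SRM cover 73.9 and 99.7% of the gene span in the RefSeq table, against 5.34 to 46.0% for the other members with a row, so their length-scaled levels may be low relative to the others. Dividing by length does not alter a comparison of 1 gene, or of the ratio of 1 gene to another, between tissues, unlike shares and ratios of sums. The part of intron reads in ODC1 and SRM, which may differ with library RNA type, was not tested. SAT1 stood at 5.19 to 24.9 times SRM in length-scaled reads in testis and at 207 to 414 times in epididymis. By raw reads it stood at 0.906 to 4.36 times in testis and at 36.2 to 72.4 times in epididymis, so the size of these multiples depends on the counted lengths.

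The genes with the pattern most like a member were sought among 9404 genes with a symbol and a mean of at least 10 CPM, by the root mean square difference of centred log2 CPM over the 10 libraries. For OAZ3 they were SELENOV (0.230), PRSS37 (0.353), CCDC33 (0.364) and ACTL9 (0.375). SELENOV had 318 ± 92.8 CPM in testis, against 1.05 ± 1.51 CPM in epididymis (SD over 5 libraries each). For AZIN2 they were WDR93 (0.188), ZC2HC1C (0.211), NUP188 (0.213) and LRRC56 (0.244). For ODC1 they included TIGD5, SEC14L1 and RFK (0.169 to 0.183), and for SAT1 they were TM4SF1, CDKN2AIPNL, CLTA and MFSD3 (0.271 to 0.363). Among the members themselves, the nearest to OAZ3 was AZIN2 at 2.421, the nearest to AZIN2 was SRM at 0.717, and the nearest to ODC1 was OAZ2 at 0.383. All libraries of 1 tissue share these differences, so the measure mostly reflects the tissue contrast.

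Other listed genes, of polyamine supply, use, transport and breakdown apart from GGN, were called in both directions. Of 33 listed, 30 had a row and 26 passed the filter, of which 6 were higher in testis, 12 higher in epididymis and 8 not called, with a median log2 fold change of -0.54 against -0.07 over all genes tested. Over all genes tested, the shares called were 36.6% with testis higher and 37.8% with epididymis higher. SMS, the spermine synthase that follows SRM in the pathway, had 12.9, 11.6, 11, 18.1 and 15 CPM in testis replicates 1 to 5, against 150.5, 113, 106, 236 and 163 CPM in epididymis replicates 1 to 5. Its direction was opposite to that of SRM in every boar, with a log2 fold change of -3.46 ± 0.25 (edgeR adjusted p = 2.32e-07). SMS stood at 0.155 to 0.375 times SRM in length-scaled reads in testis and at 8.44 to 32.4 times in epididymis. By raw reads it stood at 0.107 ± 0.0402 and 9.23 ± 5.05 times. The size of these multiples depends on the counted length of SRM, which covers 99.7% of its gene span. SMOX, the spermine oxidase, had 9.59 ± 0.663 CPM in testis, against 46.7 ± 10.8 CPM in epididymis (SD over 5 libraries each), with a log2 fold change of -2.27 ± 0.20 (edgeR adjusted p = 1.01e-06). SAT2, a relative of SAT1, was the smallest called difference higher in testis, with 14.4 ± 1.85 CPM in testis against 9.27 ± 3.42 CPM in epididymis (log2 0.65, edgeR adjusted p = 0.0420), and lost its call in 8 of 20 alternatives.

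The 3 listed methionine adenosyltransferase genes, which supply S-adenosylmethionine, were called higher in epididymis (MAT1A, MAT2A and MAT2B), as were 37.8% of all genes tested. MAT2A, the widely expressed methionine adenosyltransferase, had 55.4 to 116 CPM in testis against 560.5 to 1528 in epididymis (log2 -3.69 ± 0.35, edgeR adjusted p = 2.20e-06). MAT1A, the form known from liver, had 1.39 to 2.94 CPM in testis against 199 to 1409 in epididymis (log2 -8.36 ± 0.57, edgeR adjusted p = 1.67e-07). AMD1, which uses their product, was not called and lay on the testis side. Amino acid transporter genes SLC7A1, SLC7A2 and SLC3A2 were called higher in testis, as were 36.6% of all genes tested. SLC7A2 was near the threshold, with 10.4 ± 2.28 CPM in testis against 6.07 ± 2.55 in epididymis (SD, edgeR adjusted p = 0.0393). Its tissues overlapped, and boar 2 had 8.37 CPM in testis against 9.86 in epididymis. SLC7A1, a cationic amino acid transporter, had 95.1 to 245 CPM in testis against 20.9 to 47.7 in epididymis (log2 2.47 ± 0.30, edgeR adjusted p = 1.36e-05), lowest in testis replicate 4. SLC3A2, the heavy chain of several amino acid transporters, had 200.1 to 686 CPM against 64.6 to 149.5 (log2 1.92 ± 0.35, edgeR adjusted p = 0.000345), also lowest in testis replicate 4, which taken as the sole testis library gave log2 1.00 (edgeR adjusted p = 0.098). MAT1A, MAT2A, MAT2B, SLC7A1, SLC7A2 and SLC3A2 were chosen for naming after their values were seen.

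The largest differences of the list in each direction were those of GGN and ATP13A4. GGN, a testicular germ cell protein in the mouse and not a polyamine enzyme or transporter, had 357 to 731 CPM in testis against 3.33 to 8.25 in epididymis (log2 6.69 ± 0.34, edgeR adjusted p = 2.60e-08). ATP13A4, a transport ATPase related to the polyamine exporter ATP13A2 and matched by identifier, had 13 reads over the 5 testis libraries against 92.9 to 772 CPM in epididymis (log2 -11.44 ± 0.85, edgeR adjusted p = 2.99e-07). Its listed relatives ATP13A2 (log2 -1.65, edgeR adjusted p = 0.00043) and ATP13A3 (log2 -1.78, edgeR adjusted p = 0.00148) were also called higher in epididymis. OAT, ornithine aminotransferase, was the smallest called difference higher in epididymis, with 102 ± 11.5 CPM in testis against 168 ± 59.4 CPM in epididymis (log2 -0.68, edgeR adjusted p = 0.0122). It lost its call in 4 of 20 alternatives, such as without testis replicate 3 (edgeR adjusted p = 0.0532) and without epididymis replicates 3 and 4 (log2 -0.36, edgeR adjusted p = 0.0826). EIF5A2, a form of the translation factor that carries the spermidine-derived residue hypusine, had 3.21 ± 0.898 CPM in testis, against 4.23 ± 1.39 CPM in epididymis and was not called (edgeR adjusted p = 0.263). AOC1, the diamine oxidase, had 25 reads in all testis libraries and 12 in all epididymis libraries and did not pass the filter.

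**Figure D5:**
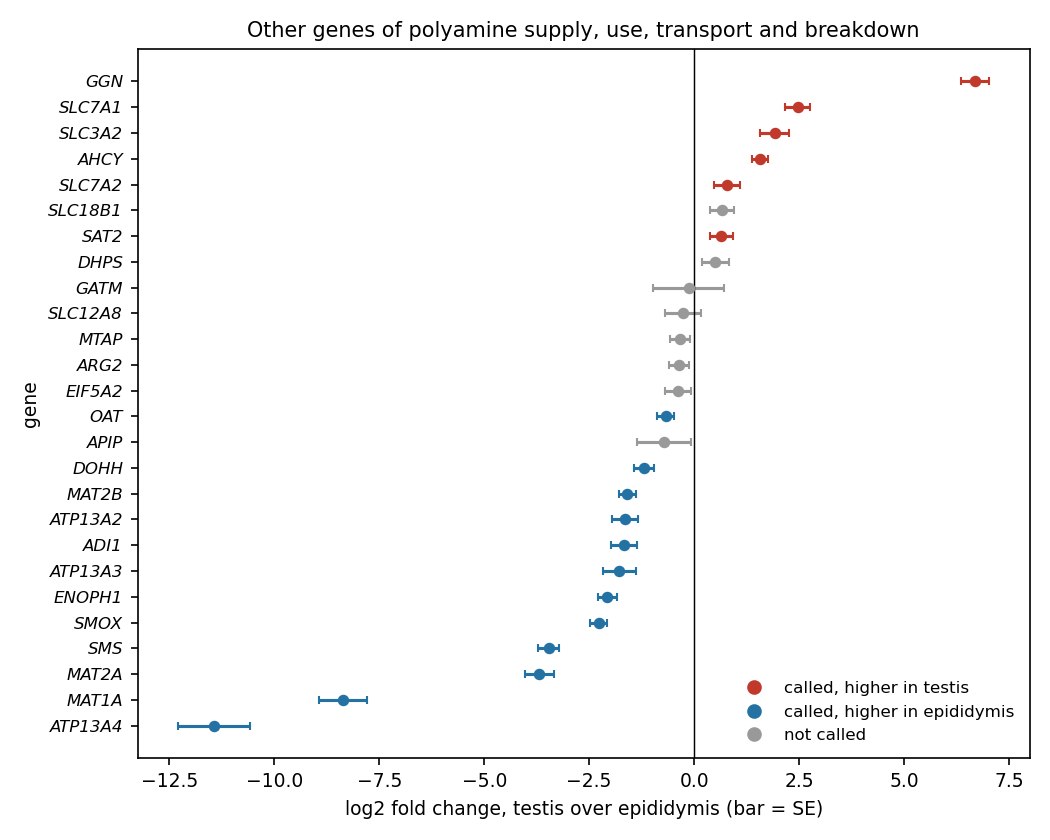
Log2 fold change, testis over epididymis, with approximate SE bars, of the 26 other listed genes that passed the filter, in order of size. Red points were called higher in testis (6 genes), blue points higher in epididymis (12 genes) and grey points were not called (8 genes), with GGN and ATP13A4 at the ends.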

How the data were processed

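The files deposited by the authors hold unnormalised read counts for each gene, made with cutadapt 3.0, STAR and featureCounts (Subread) on the build Sscrofa11.1, per the submitters' processing notes. Not given in the sources used here: annotation release, strand setting and handling of multi-mapping reads, so overlapping genes and close copies are uncertain. The gene length in each file, per the file headers, was used to scale reads by length. No 2 libraries of a tissue agreed within sampling noise (lowest chi-square per degree of freedom 9.53 in testis and 72.5 in epididymis).

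The 10 libraries were fitted with R 4.3.3 and edgeR 4.0.16 (filterByExpr, TMM factors, robust quasi-likelihood test, tissue as the only term), with Benjamini-Hochberg adjustment over 17225 genes and calls at 0.05. Standard errors are approximate, the unshrunken log2 fold change divided by the square root of F. Counts were simulated for this comparison (17066 genes) from means over both tissues, with a single dispersion and 200 genes changed. All of 100 genes changed 4-fold and 46% of 100 changed 2-fold were recovered, with 8 false calls among 154. In the data 74.4% of the genes tested were called, so the simulated shares do not give the recovery there. Same-numbered libraries come from the same boar, since header animal numbers recur, and a fit with the boar as a block was run beside it. Correlations of their deviations from the tissue means were 0.009 to 0.089. DESeq2 1.42.0, other scalings, filters and left-out libraries were alternatives.

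The members and lists were chosen with earlier results of these data known. Named are all members, the ends of the pathway list at 10 CPM or more in each direction, SMS, SMOX, EIF5A2 and AOC1, and the 4 genes most like OAZ3, AZIN2, ODC1 and SAT1, of which 1 is not reported here. MAT1A, MAT2A, MAT2B, SLC7A1, SLC7A2, SLC3A2, ATP13A2, ATP13A3, GATM, APIP, ARG1, ARG2 and AGMAT were named after their values were seen. Loci come from a RefSeq gene table of the same build, counted from 1.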

Additional observations from a re-analysis of the deposited data

Results flagged for a closer look

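In groups of 5 libraries, a value was taken up here when its gap to the nearest other library exceeded 0.71 of the group's range (Dixon's ratio), which chance gives in about 1 of 20 groups. Of 32 groups, 5 values met it, but they are not independent, since the OAZ3 shares use the same OAZ3 reads. OAZ3 was far below the other testis libraries in testis replicate 4 (923 CPM), and its share of the antizymes was far below theirs too (73.7%). OAZ3 was far above the other epididymis libraries in epididymis replicate 3 (30.5 CPM), as was its share (8.85%). ODC1 was far above the other testis libraries in testis replicate 4 (388 CPM). All 5 lie in testis replicate 4, which differs from the other testis libraries in RNA type, or in epididymis replicate 3, with the most spermatid marker reads of its tissue, and the part of that in these values was not tested.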

How the results depend on the processing

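Under 20 alternatives OAZ3, AZIN2 and SRM kept their direction and call, and no member changed direction. Between the alternatives, members called higher in testis numbered 3 to 6 (3 against a 2-fold change, 4 when replicate 4 was the sole testis library, 5 to 6 with single libraries left out), against 5. Members called higher in epididymis numbered 2, but 1 with the boar as a replicate block, with DESeq2 size factors, with DESeq2, without a filter, without rows of RNAs lacking a poly(A) tail and against a 2-fold change, and 1 to 3 with single libraries left out. When replicate 4 was the sole testis library edgeR called 0 (1 at an unadjusted p under 0.05), which also gave 2145 genes higher in epididymis, against 6506, and 3 and 6 other pathway genes higher in testis and epididymis, against 6 and 12. It alone turned EIF5A2 (log2 0.10, edgeR adjusted p = 0.911, against -0.39). Its spread comes from the epididymis libraries alone. Beyond 2-fold, 4033 genes were higher in epididymis. By raw reads in place of length-scaled reads AZIN2 took 88.8% of the inhibitors in testis and 25.1% in epididymis, against 95.0 and 43.2%. ODC1 (log2 1.28, edgeR adjusted p = 0.0549) and the PAOX row (log2 0.67, edgeR adjusted p = 0.325) lost their calls when replicate 4 was the sole testis library, and also against a 2-fold change. OAZ2 lost its own against a 2-fold change. With the boar as a block the calls of OAZ1 and AMD1 changed, and those of the other members, the PAOX row, GGN, SAT2, ATP13A4, OAT, SMS, SMOX, EIF5A2, MAT1A, MAT2A, SLC7A1 and SLC3A2 did not. Leaving out testis replicate 4 and epididymis replicate 3 together was chosen after seeing the data and left 5 and 2 members called. Counts from PCR-amplified cDNA without molecular identifiers limit the precision of genes near the floor, such as AOC1.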

Other observations

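Among listed pathway genes that were not called, GATM and APIP had 1 library far from the rest. GATM, which makes the creatine precursor from arginine, had 39.2 to 85.8 CPM in testis, and in epididymis 246 CPM in replicate 3 against 8.15 to 31.6 in the others (edgeR adjusted p = 0.895 between tissues). APIP, a methionine salvage enzyme, had 31.6 CPM in testis replicate 4 against 4.63 to 6.92 in the other testis libraries, and 49.8 CPM in epididymis replicate 3 against 7.74 to 11.8 in the other epididymis libraries. ARG1, the liver arginase, and AGMAT held 15 and 32 reads over all testis libraries and 27 and 28 over all epididymis libraries, whereas ARG2, the mitochondrial arginase, had 8.79 ± 1.12 CPM in testis against 11.5 ± 4.07 CPM in epididymis (SD over 5 libraries each) and was not called (edgeR adjusted p = 0.217).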
